A study of Mus musculus with 60 samples.

Results

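PolyA RNA of the hand-dissected striatum was sequenced from 60 HS-CC mice, a heterogeneous stock bred from the founder strains of the collaborative cross and selected over generations for their response to haloperidol, with 1 library per mouse. The labels number the mice and give their sex and whether they responded with catalepsy, a loss of voluntary movement, or not (responders and non-responders). No age, and no date or group of library preparation, was given. The 16 mice numbered 41 to 56, here called the block, were compared with 39 others, here called the rest, and both groups share the stock, the tissue and the library protocol. The block held 4 mice of each sex and phenotype. In the rest, 18 mice were female (10 of them responders) and 21 were male (10 of them responders). Mice 26, 4, 5, 62 and 63 were left out of both groups, the first for its shallow library and the other 4 for the strongest bias towards the 3′ end of genes.

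The block was chosen by its depth, so depth and 3′ bias are given as a description with no test. Reads recovered from the gene table ranged from 4913122 to 9507322 in the block and from 12051239 to 21872744 in the rest, and mouse 26 had 8271156. The deepest block mouse and the shallowest rest mouse stood on either side of the gap between these ranges, and mouse 40, whose number comes just before the block, had 12076495. The 3′ slope, the median over 5209 genes of how log2 exon values climb from the first to the last exon row relative to the mean of all mice, was −0.316 to −0.170 in the block and −0.159 to 0.187 in the rest. Relative to the rest, exon values in the block were shifted towards the 5′ end, without overlap, while mouse 26 at −0.0127 lay within the rest. Depth, slope and the mouse number cannot be told apart in this design.

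A polyA library is made by catching RNA on oligo-dT, so it holds mostly finished messenger RNA. RNA without a polyA tail, such as ribosomal and most small nucleolar RNA, is depleted in such a library, while nuclear RNA that carries a tail is kept, and fragments far from the polyA tail are lost when RNA is broken before capture. The striatum is the input nucleus of the basal ganglia and consists mostly of GABA-releasing medium spiny neurons. Of the 33 marker genes of these neurons that were listed, 26 were among the genes tested.

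Of 8535 genes averaging at least 10, 4133 differed between block and rest (48.4%; limma with the trend option, Benjamini-Hochberg adjusted, catalepsy as a covariate), 2044 higher (23.9%) and 2089 lower (24.5%) in the block. The sizes were uneven between directions. The difference was at least 2-fold for 219 genes, all higher in the block (2.57% of the genes), and it exceeded 2 on the log2 scale for 99 of them. The lowest gene fell by 0.90 on the log2 scale. The median over all genes was −0.03. All block mice lay above all rest mice for 127 genes (1.49%), and for none below. Of the 219 genes, 111 averaged under 10 in the rest and passed the filter only through the block, so that they had to differ, against 118 of all genes tested. Counts were 4069 in edgeR on recovered reads and 3993 with all libraries thinned to the lowest total, but 1140 (750 higher, 390 lower) with the 3′ slope as a covariate and 2045 (1429 higher, 616 lower) with the rest limited to mice 57 to 64.

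The genes that rose most included short transcripts of shared sequence, printed here because their loci cannot be told apart by it. Gm24245 (chr4:139338304-139338360) and Gm23935 (chr16:11144125-11144181), on the forward strand in GENCODE M21 (GRCm38) and annotated there as miRNA genes, had the same 57 bases, all 57 identical:
Gm24245: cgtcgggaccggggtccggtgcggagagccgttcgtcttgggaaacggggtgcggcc
Gm23935: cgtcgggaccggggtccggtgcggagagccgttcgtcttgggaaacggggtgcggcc
Reads of such copies cannot be assigned to 1 locus with certainty. Gm15564, an antisense gene at chr16:35966752-35983230, and Lars2 shared a stretch of 52 bases, which starts 617 bases before the end of the Lars2 transcript of 3894 bases. Its first 30 bases are shown in lower case:
Gm15564: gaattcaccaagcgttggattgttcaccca

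Lars2 encodes the mitochondrial leucyl-tRNA synthetase. Its deposited value, read counts multiplied by a factor per library, ranged from 163651 to 546556 in the block (median 229648) and from 914 to 5820 in the rest (median 1832), and was 3881 in mouse 26. The groups did not overlap, and the log2 difference was 7.09 (SE 0.17, adjusted p = 9.64e-41 by limma). The exon table placed the difference in 1 of 21 exon rows, the last, which held 99.8% to 99.96% of the gene's exon values in the block and 69.8% to 97.0% in the rest.

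Gm15564 was 5045 to 26271 in the block (median 10281) and 7.82 to 90.4 in the rest (median 21.4), the highest log2 difference of all genes (8.91, SE 0.24, adjusted p = 5.34e-39, limma). Gm23935 was 1555 to 8013 against 0 to 51.1 (log2 difference 8.45, SE 0.28), and Gm24245 was 26504 to 85024 against 133 to 1506 (6.61, SE 0.20). Both sets of ranges were apart. By size they were followed by 3 genes without a symbol in the annotation, ENSMUSG00000093077 (6.52), ENSMUSG00000045999 (5.22) and ENSMUSG00000091959 (4.96 on the log2 scale).

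Malat1, a long noncoding RNA that is kept in the nucleus in speckles where splicing factors are stored, was 39701 to 94696 in the block (median 63422) and 2572 to 13425 in the rest (median 5171). The highest rest mouse was number 40. Mouse 26 had 8121, within the rest. The log2 difference was 3.65 (SE 0.14, adjusted p = 4.36e-30, limma). Of the 5 nuclear long noncoding RNA genes tested from a list, 2 rose, Malat1 and the imprinted Meg3 (0.30, SE 0.10, adjusted p = 0.00917), and their median was 0.06, with a share called (40%) under that of all genes (48.4%).

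**Figure D1:**
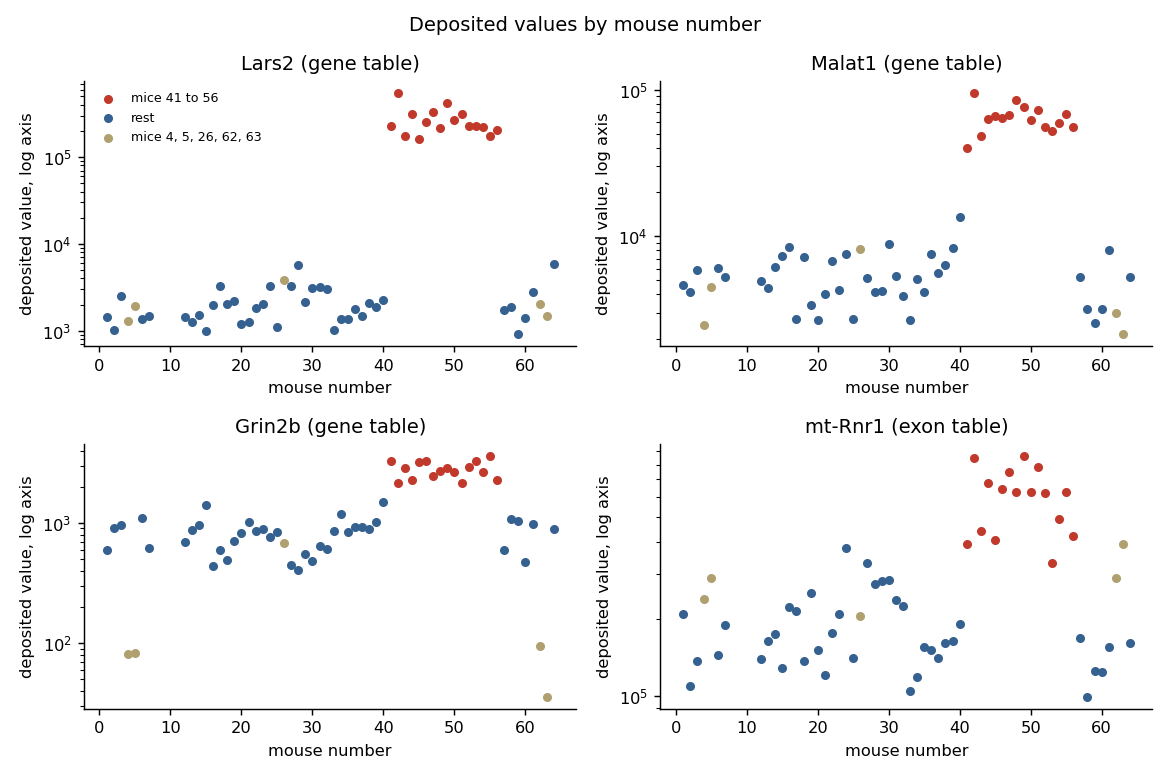
Deposited values (log axis) of Lars2, Malat1 and Grin2b in the gene table and of mt-Rnr1 in the exon table, plotted by mouse number, with 1 point per mouse. The 16 block mice form a step in Lars2 and Malat1, and the Grin2b values of mice 4, 5, 62 and 63 lie below those of the rest.

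By GENCODE gene type, an order looked at after the values were known and given as a description, the medians of the 7 plotted types were highest for scaRNA, snoRNA and antisense genes and lowest for processed pseudogenes. The filter fixed these figures in part. Of the scaRNA genes 3 of 4 averaged under 10 in the rest, as did 3 of 12 snoRNA, 26 of 61 antisense, 9 of 45 lincRNA and 29 of 7943 protein-coding genes. The deposited genes number 9066, as many as the paper kept after dropping genes with low counts or with only weakly connected exons. That choice was made over mice that include the block. How far it favoured genes that differ in the block was not tested. All 4 scaRNA genes, guides of RNA modification in Cajal bodies, rose (median 2.80), 11 of 12 snoRNA genes rose and none fell (median 1.52), and 51 of 61 antisense genes rose and 2 fell (median 1.45). Of 45 lincRNA genes 29 rose and 4 fell, and the median was 0.53. Of 259 processed pseudogenes 40 rose and 159 fell, with a median of −0.24, and among 7943 protein-coding genes the counts were 1784 and 1888, with a median of −0.03. Of 141 genes not in the annotation, 88 rose (62.4%, against 23.9% of all genes) and 22 fell (15.6%, against 24.5%). How many of these 141 passed the filter only through the block was not counted.

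**Figure D2:**
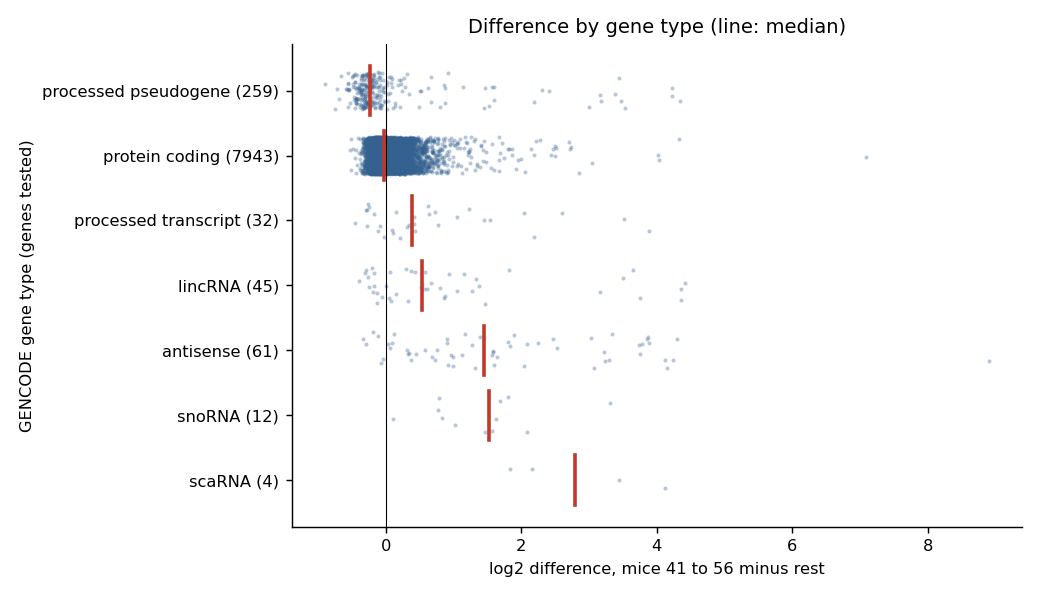
Log2 difference between block and rest for each tested gene (points) for 7 GENCODE gene types, with the median as a line and the number of genes in parentheses. The median is 2.80 for scaRNA, 1.52 for snoRNA, 1.45 for antisense and −0.24 for processed pseudogene genes.

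Scarna2 was 28.6 to 154 in the block (median 69.5) and 0 to 17.2 in the rest (median 2.75), with a log2 difference of 4.12 (SE 0.29). Among snoRNA genes, Gm24339 was 35.6 to 219 against 0.78 to 47.8 (3.31, SE 0.27), so that the ranges overlapped, and Snord104 did not pass the test (0.11, SE 0.15). Antisense genes such as Gm15577 (44.3 to 110 against 0 to 17.8) and Ppp2r2cos (71.1 to 175 against 1.06 to 22.6) lay inside a protein-coding gene. Because the protocol does not mark strand, reads of these genes and of the unspliced RNA of their host cannot be told apart. Of the 173 annotated genes that rose at least 2-fold, 93 (53.8%) lay inside the body of another protein-coding gene, against 4.29% of 8394 annotated genes tested. Those 173 include genes that passed the filter only through the block. The share among protein-coding genes was 35.1% of the 74 that rose at least 2-fold and 2.54% of all 7943.

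The ends of annotated transcripts were searched on the transcript strand for the polyA signals AATAAA and ATTAAA within the last 40 bases. A signal was found in at least 1 transcript of 86.7% of all tested genes with a transcript, of 54.3% of those that rose at least 2-fold, of 88.4% of those that rose less, and of 82.9% of those that fell. Among 16 scaRNA and snoRNA genes, 2 had one, and 1.93% of processed pseudogenes did. The last 30 bases of 2 noncoding genes that rose are shown, with the signal in capitals where present, because the genes differ in it although both rose:
Malat1: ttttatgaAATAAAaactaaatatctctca
Scarna2: gccgctgattaccgagcgattctgatctga

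The genes that fell did so by less. The 12 with the largest decrease were processed pseudogenes, intronless copies of messenger RNA. Prdx6-ps2 was 13.8 to 44.8 in the block (median 24.7) and 20.2 to 92.3 in the rest (median 45.1), with overlapping ranges, and fell by 0.74 on the log2 scale (SE 0.14). Gm13503 fell by 0.90 (SE 0.20, adjusted p = 1.55e-04), from a median of 10.9 in the rest to 5.82 in the block. Pseudogene reads can be shared with their parent gene, so these values are uncertain. With the rest limited to mice 57 to 64, Prdx6-ps2 and Gm13503 no longer passed the test.

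Genes with long transcripts rose more often and genes with short ones fell more often. With the genes divided by exonic length into 5 groups of equal size, the median log2 difference climbed from −0.14 in the shortest group, through −0.10, −0.03 and 0.04, to 0.13 in the longest. In the longest group 50.8% of the genes rose and 4.94% fell, while in the shortest 12.03% rose and 49.3% fell. Over 8394 genes, which are not independent, Spearman's rho of the difference with exonic length was 0.52, with the length of the gene body 0.42, with the number of exon rows 0.39, with the mean value −0.14 and with GC content 0.02. The contrast of long and short gene bodies was seen at each level of expression. In the lowest of 5 equal groups by mean value the medians were −0.08 for the shortest and 0.25 for the longest bodies of protein-coding genes, and −0.15 and 0.04 in the highest group.

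**Figure D3:**
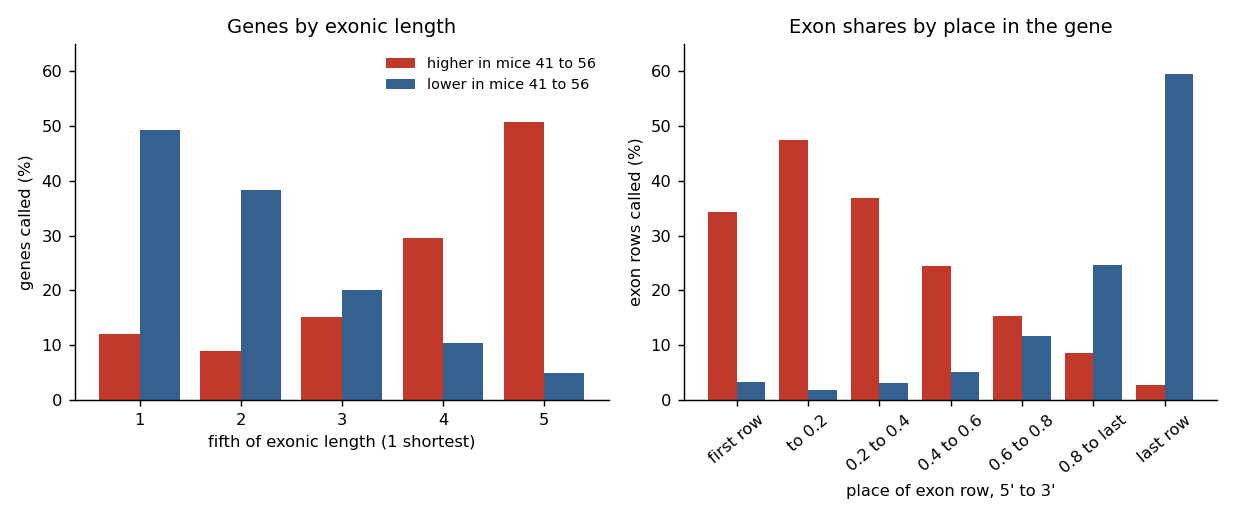
Percentage of genes called higher or lower in mice 41 to 56 by exonic length, shortest to longest (left) and of exon rows called by their place in the gene from 5′ to 3′ (right). The shares called higher grow from 12.03% to 50.8% with length and drop from 47.4% early in the gene to 2.65% in the last row.

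Exon shares, the part that an exon row takes of its gene's exon values, differed for 25254 of 66430 exon rows (38%), 15616 higher (23.5%) and 9638 lower (14.5%) in the block. In simulated data with 200 changed rows this test called 198 of them and 99 rows of unchanged genes. The 25254 rows may therefore hold more false calls than the threshold allows. With exon reads thinned to the lowest total 15748 rows were called, and with the 3′ slope as a covariate 4287. The slope is computed from these same exon values, so a fall with it was built in. By place in the gene the shares are a description, since they restate the 3′ slope by which mice were left out. The median log2 difference was 0.11 for first rows, 0.17 for the rows after them up to 0.2 of the way along the gene, 0.01 for rows from 0.6 to 0.8 of the way, and −0.07 for last rows. With the 4 biased mice kept the early and last rows stood at 0.25 and −0.09.

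Single exon rows changed far more than that trend. A rise of at least 2 on the log2 scale was found in 84 rows of 67 genes, of which 63 rows averaged under 10 in the rest and passed the filter only through the block (1241 of all rows tested did), as did all 8 named below, and a fall of that size in 10 rows, all of Lars2, in which the last row had gained. Row 2 of 36 in Tnik, a kinase of the Wnt pathway and the synapse, took 0.705% to 1.98% of the gene in the block and 0 to 0.0981% in the rest, and rose by 4.75 on the log2 scale (SE 0.21, adjusted p = 3.68e-27, limma). Row 3 of 7 in Timp3, an inhibitor of metalloproteinases, took 11.6% to 25.1% against 0 to 1.95% (4.32, SE 0.21), and 3.27% in mouse 26, between the groups. Row 2 of 23 in Top1, the DNA topoisomerase, took 3.70% to 9.12% against 0 to 1.01% (4.21, SE 0.23). In these 3 rows the block and the rest were apart. Row 6 of 31 in Pde10a, the phosphodiesterase of medium spiny neurons, took 0.0648% to 0.273% against 0 to 0.0181% (4.21, SE 0.24), while the gene value of Pde10a did not pass the test (0.09, SE 0.08). Pde7b (4.55), Plcb1 (4.37), Negr1 (4.13) and Auts2 (4.13) had rows of like size. All 8 passed with thinned reads.

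Among rows that lost share, the last of 93 in Lrp1b, a lipoprotein receptor, took 8.62% to 14.7% in the block and 16.04% to 32.1% in the rest, without overlap, and fell by 1.06 (SE 0.06). A row of Fto, the RNA demethylase, fell by 1.04 (SE 0.14), from a median of 0.855% to 0.425%. The remaining named rows lay in Gm43517, Tmem94, Mycbp2, Nckap5 and ENSMUSG00000045999, with decreases in share from 0.97 to 1.77. The largest of these, in ENSMUSG00000045999, was a loss of share only. The value of that row rose from a median of 55 in the rest to 584 in the block, less than the gene as a whole. The row of Gm43517 had like values in both groups (median 59 in the rest and 57.5 in the block).

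Among the lists with at least 9 members tested, chromatin modifier and voltage-gated channel genes had the highest shares of members that rose. Of 90 chromatin modifier genes 53 rose and 5 fell (median 0.16, against −0.03 for all genes, and 58.9% higher against 23.9%). Crebbp, a histone acetyltransferase, was 1965 to 2488 in the block (median 2228) and 918 to 1636 in the rest (median 1270), a log2 difference of 0.83 (SE 0.05). Kmt2d, a histone methyltransferase, was 5020 to 6568 against 2224 to 4764 (0.75, SE 0.05). Neither overlapped, and mouse 26 lay with the rest in both (1238 and 3804). Crebbp (13540 bases) and Kmt2d (19931 bases) belong to the longest group by exonic length, in which 50.8% of all genes rose. No list was compared with genes of like length. Of 43 voltage-gated channel genes 20 rose and none fell (median 0.18, 46.5% higher). Among them were the calcium channel gene Cacna1d (0.59, SE 0.06) and the potassium channel gene Kcnq1 (1.34, SE 0.13). Cacna1d was 645 to 898 in the block and 357 to 700 in the rest. Kcnq1 was low, at 20.6 to 41.5 in the block and 4.52 to 19.4 in the rest, so its difference rests on few reads. Of 139 zinc finger genes 56 rose and 23 fell (median 0.08), and of 18 matrix genes 6 rose and 1 fell.

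Of 33 glutamate and GABA receptor genes 11 rose and 3 fell (median 0.06), which is 42.4% called, near the 48.4% of all genes. Grin2b, an NMDA receptor subunit, was 2140 to 3619 in the block (median 2791), 406 to 1487 in the rest (median 848), and 678 in mouse 26. It rose by 1.82 on the log2 scale (SE 0.12, adjusted p = 4.39e-20, limma), with no overlap. The mice left out for 3′ bias had 80.7, 82.3, 93.6 and 35.7, below every rest mouse. Grin2a, another NMDA receptor subunit, was 834 to 2062 against 320 to 1083 and rose by 1.06 (SE 0.12), with overlap. With the 3′ slope as a covariate the differences were 1.46 for Grin2b and 0.68 for Grin2a, and that of Malat1 was 4.08.

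Most members of the respiratory chain and proteasome lists fell. Of 72 genes with names of the respiratory chain and ATP synthase 45 fell and none rose (median −0.15). Both counts include pseudogenes such as Atp5k-ps2 (−0.56) and Uqcrh-ps1 (−0.44). Of 30 proteasome genes 21 fell and 1 rose (median −0.15). The share lower among all genes was 24.5%. The directions of both lists were the same under library total, TMM and thinned scaling. In the shortest group by exonic length, which holds Atp5g3 (2181 bases), 49.3% of all genes fell (median −0.14). Neither list was compared with genes of like length. Atp5g3, a subunit of ATP synthase, was 2747 to 3418 in the block (median 3088) and 3123 to 4181 in the rest (median 3595), and fell by 0.22 (SE 0.03). Psmd14, the proteasome deubiquitinase, was 641 to 724 against 680 to 830 and fell by 0.16 (SE 0.02). Both overlapped. Of 4 replication-dependent histone genes, a class that mostly lacks a polyA tail although 2 of these 4 had an annotated transcript with a polyA signal, 2 rose (50%, near the share of all genes called), Hist1h1e by 1.96 (SE 0.20) and Hist2h4 by 1.06 (SE 0.14), and both lost the call with the 3′ slope as a covariate.

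**Figure D4:**
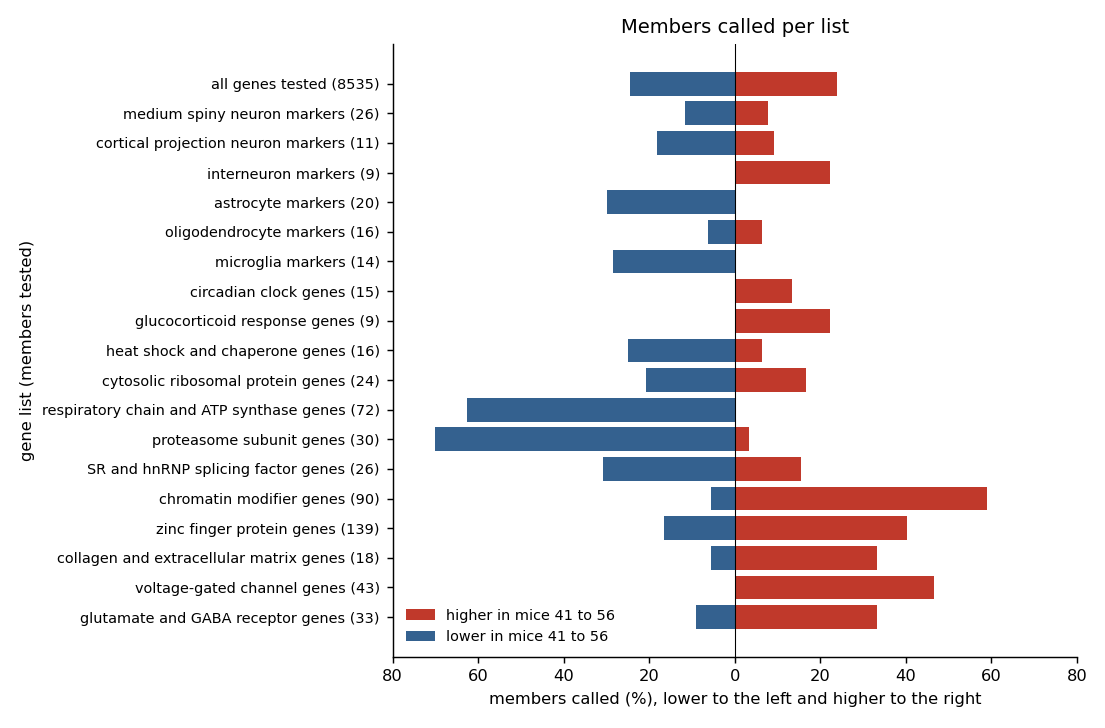
Percentage of the tested members of each list with at least 9 of them that were called higher (right) or lower (left) in mice 41 to 56, with all genes in the top row and the number of members in parentheses. The proteasome (70% lower) and respiratory chain (62.5% lower) lists and the chromatin modifier list (58.9% higher) stand farthest out.

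The marker lists of cell types were called in shares below or near those of all genes (23.9% higher, 24.5% lower). Of 26 medium spiny neuron markers 2 rose and 3 fell (median −0.10), of 20 astrocyte markers 6 fell (median −0.13), of 16 oligodendrocyte markers 1 rose and 1 fell, and of 14 microglia markers 4 fell (median −0.16). Of 11 cortical neuron markers 1 rose and 2 fell, of 9 interneuron markers 2 rose, and of 5 endothelial markers 1 rose and 1 fell. With the rest limited to mice 57 to 64 the medians of medium spiny neuron, astrocyte and microglia markers were 0.07, 0.03 and 0.01. Fewer cells of a type, less RNA per cell and the library-wide trends with transcript length and 3′ slope cannot be told apart. None of the 15 choroid plexus or 12 blood genes was among the genes analysed. Of 16 heat shock genes 4 fell and 1, Hspd1, rose (0.53), of 15 clock genes 2 rose, and of 5 immediate early genes 1 fell.

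Mitochondrial transcripts were read from the exon table, since the gene table lists both at 0. The row of mt-Rnr1, the small mitochondrial ribosomal RNA, was 331538 to 865776 in the block (median 624738) and 99364 to 377596 in the rest (median 160834), and 15 of the 16 block mice lay above all rest mice. Mouse 26 had 205257. The log2 difference was 1.74 (adjusted p = 1.33e-05 by two-sided permutation, from the smallest p that 100000 resamples can give). The row of mt-Cytb, a protein-coding gene, was 88281 to 336867 against 117433 to 439014, with a log2 difference of −0.30 (adjusted p = 0.0498, permutation), and did not pass with mouse 26 added to the block. The share of both rows in the exon table was 5.58% ± 1.44 (SD, n = 16) in the block and 3.25% ± 0.97 (n = 39) in the rest. The 100 highest genes took 18.1% ± 0.99 and 17.0% ± 0.48 of the recovered reads, and each difference had the same adjusted p by permutation. These 100 genes were ranked by their mean over all mice, which takes in Lars2 through its block values. Their share therefore partly restates the gene comparison.

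Of the 9066 deposited genes, more had at least 1 read in the block, although its libraries were shallower. The number was 9024 to 9061 in the block and 8796 to 9006 in the rest. With libraries thinned to the lowest total it was 8995 to 9056 against 8634 to 8878, also without overlap. The block values are near the ceiling of 9066, a set that the authors selected over mice that include the block. Genes outside this set were not counted. Mouse 26 had 8814 after thinning, within the rest. For the 219 genes that rose at least 2-fold, mouse 26 was at or under the highest rest mouse in 202 and at or above the lowest block mouse in 57. Its median position was 23.4% of the way from the rest mean to the block mean, where rest mice ranged from −21.6% to 44.2% and block mice from 76.8% to 126%. The 219 genes were chosen by the difference between these same block and rest mice, so a gap between their ranges was fixed in advance. Mouse 26 was in neither group.

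The first principal component, with 45.5% of the variance, separated block (22.8 to 39.8) and rest (−22.1 to 3.34) without overlap, whereas the second, with 14.7%, did not. The block term took at least 50% of the variance in 511 genes and a median of 8.54%. The spread between mice was alike, with a median SD of 0.19 on the log2 scale in both groups. Over all tested genes the mean absolute correlation between genes was 0.27 over the 55 mice and 0.25 with the group means removed. It was 0.29 in the 16 block mice and 0.27 in the 39 rest mice alone, and 0.40 and 0.22 for the 219 genes. Unequal numbers of mice stand behind these values. The 219 genes were chosen as higher in the block, and 111 of them averaged under 10 in the rest, so their correlation cannot be compared between the groups.

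Responders and non-responders were compared next, since the labels divide the mice by catalepsy. With the block as a term, 40 of 8535 genes differed (0.469%), 26 higher and 14 lower in responders. Without it there were 16, all among the 40. Ankrd6, a Wnt pathway protein, was 1604 ± 301 (SD) in responders and 1228 ± 188 in non-responders of the rest, and 1556 ± 138 and 1153 ± 247 in the block (log2 difference 0.40, SE 0.06, adjusted p = 5.36e-04, limma). The kinase gene Ick was higher by 0.23 (SE 0.04) and Rars2, the mitochondrial arginyl-tRNA synthetase, fell by 0.35 (SE 0.06). Within the block alone 0 genes passed limma, with 164 at an unadjusted p under 0.05. The interaction of block and catalepsy gave 0 genes in limma (84 at an unadjusted p under 0.05) and 0 in edgeR (69), so no gene was shown to respond differently in the block. The 3 genes of smallest p were 3110009E18Rik (−1.02), Sh3d19 (−0.39) and Fcor (−0.65 on the log2 scale), none of which passed.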

How the data were processed

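The series holds striatal polyA libraries of 60 HS-CC mice, 1 library each. Per the labels and methods, the authors aligned reads with Bowtie 0.12.7 to NCBI m37 and counted them on Ensembl 59 union exons, in R 3.0.2 with edgeR 3.4.2. In the deposited gene table the values are a signal, counts times an upper quartile factor per library, from which whole reads were recovered (largest deviation 6.54e-05 reads, 100% of values within 0.01). The deposited exon table holds a score, the same product rounded to whole numbers. Recovered reads were 4913122 to 21872744 per mouse; replicates are single mice, and precision came from their spread.

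Gene values were tested with limma 3.58.1 (trend) on log2(value + 1), for genes averaging at least 10, with catalepsy as covariate; fold changes are on that scale and understate changes of low genes. Exon shares used rows averaging at least 10 in genes of at least 100. The alternatives, in R 4.3.3 with edgeR 4.0.16 and DESeq2 1.42.0, concerned pseudocount, filter, scaling, covariates and mice; 1 weight per group was added after seeing the data. Scripts were tested on simulated data with 200 changed features. The gene test (limma) recovered 196 of them with 19 false calls. The exon share test recovered 198 with 99 false calls, and with thinned reads 183 with 12 false calls. Single measures were compared by two-sided permutation (100000 resamples), adjusted over 4. Positions, gene types and sequences came from GENCODE M21, in which 97.7% of 9066 genes were found; exon starts in the files are in NCBI m37.

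Named genes were the 12 largest increases and decreases, the 6 of smallest p, up to 3 per list, 8 exon rows per direction and 3 per catalepsy term; the examples of gene types and the gene value of Pde10a were chosen after their values were seen. The mice and lists were chosen with earlier results of these data known.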

Additional observations from a re-analysis of the deposited data

How the results depend on the processing

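The number of genes differing between block and rest was 1140 with the 3′ slope as a covariate, 2045 with the rest limited to mice 57 to 64, 2188 in females and 2626 in males, the last 3 with fewer mice. It lay within 1.5 times of 4133 under the other alternatives. Exon rows called were 14967 at a minimum of 50 (fewer rows tested), 15748 with thinned reads, 4287 with the slope, 7311 with mice 57 to 64, 15576 in females and 16163 in males, and 20914 with 1 weight per group, an alternative chosen after seeing the data. The difference between early and last exon rows was 0.238 and was 0.0419 with the slope. Because the slope is computed from the same exon values, this fall and that to 4287 rows were built in. Genes differing by catalepsy numbered 19 with the slope, 19 with mice 4, 5, 62 and 63 kept, 16 without the block term, 15 in the rest alone and 0 in the block alone; the cause was not tested.

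Of the named genes that passed the test in the main comparison, 7 changed sign under an alternative. Sign changes of genes that passed in neither fit were not counted. With the slope Mertk was at −0.0317, Car2 at 0.0362, Ctsd at 0.0147 and Kdm5c at −0.00862 on the log2 scale, and with the rest limited to mice 57 to 64 Ndrg2 was at 0.00441, P2ry12 at 0.0283 and Dnajb4 at 0.0279; none passed there. The long-against-short contrast kept its direction in all alternatives run. No paired analysis was possible because the mouse numbers are not shared between groups. Depth limits the block, where 1 read is worth 1.55 to 2.77 units against 0.64 to 1.19 in the rest.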
